A study of Rattus norvegicus with 138 samples.

Results

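The caudal ventrolateral medulla (CVLM) of 3 WKY rats at 24 wk of age was compared with that of 3 WKY rats at 12 wk. These 6 libraries were chosen by region, strain and age alone from the 46 of the CVLM (3 regions were sampled in each of 46 rats), and 13408 of the 32883 genes in the table passed a filter on low counts and were tested. All rats were female. WKY rats (WKY/NHsd) are the normotensive control of the spontaneously hypertensive rat (SHR, SHR/NHsd). No rat of either strain carried an engineered allele, and the paper reports no agent other than isoflurane, given before decapitation. The rats were housed singly. A library came from punches of 1 mm in diameter, taken on both sides of 200 µm sections of 1 animal, so that it holds RNA of every cell type in the punch. The difference between the ages was set beside that in the CVLM of 6 SHRs at each of the same ages, and beside that in the NTS (solitary tract nucleus) and the RVLM (rostral ventrolateral medulla) of the same 6 WKY rats.

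The CVLM is a relay of the baroreflex. Its GABAergic neurons are excited from the NTS when arterial pressure rises and inhibit the presympathetic neurons of the RVLM, and catecholamine neurons of the A1 and caudal C1 groups lie among them. The comparison asks which transcripts differ between a young and a mature adult in a strain whose pressure stays normal.

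The libraries held between 7897447 and 9979543 counts. The 24 wk libraries resembled each other more (Pearson's r of log2 levels across genes, 0.967 to 0.978) than the 12 wk libraries did (0.915 to 0.959), and rats 1 and 2 of 12 wk lay farthest apart. Library names of WKY rats end in 1 at 12, 16 and 24 wk, in 2 at 10 wk and in either at 8 wk. The labels do not say what this number is. A difference of 10 wk from the later ages cannot be told apart from it, nor in part can one of 8 wk. Levels are given as CPM, counts scaled by library size and TMM, in rats 1, 2 and 3 of an age. Some genes spread widely at 12 wk in the order rat 1, rat 3, rat 2. Jund, a subunit of the AP-1 transcription factor, stood at 163, 2.01 and 48.4 CPM at 12 wk and 3.83, 4.71 and 7.60 CPM at 24 wk. Olig1, a transcription factor of oligodendrocytes, stood at 270.3, 25.6 and 88.6 CPM at 12 wk and 39.2, 44.9 and 54.7 CPM at 24 wk. Genes of catecholamine, GABA and glutamate neurons were present in every library. Th, the rate-limiting enzyme of catecholamine synthesis, ran from 78.6 to 151 CPM, Pnmt of adrenaline synthesis from 27.7 to 68.4 CPM, Gad1 of GABA synthesis from 119 to 192 CPM and the glutamate transporter Slc17a6 from 161 to 285 CPM. Of 43 Hox genes, which mark position along the hindbrain and spinal cord, 14 passed the filter on low values. Hoxa5 stood at 2.59, 0 and 2.75 CPM at 12 wk and 0, 0 and 0 CPM at 24 wk, with 0 counts in 4 of 6 libraries, while Hoxb5 stood at 79.97, 66.8 and 62.6 CPM at 12 wk and 77.7, 75.3 and 93.8 CPM at 24 wk. Neurod6, known from forebrain neurons, ran from 30.8 to 36.4 CPM.

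In the CVLM of WKY rats 3 genes were higher and 3 lower at 24 than at 12 wk. The signaling regulator Rgs17 rose 1.85-fold, LOC100912478 rose 1.81-fold and LOC314140 rose 1.76-fold. The endothelial receptor Tie1 was 1.96-fold lower, the complement protease Masp1 1.74-fold lower and Aacs, an enzyme of ketone body use, 1.46-fold lower. These 6 were 0.0447% of the genes tested (0.0224% in each direction) by edgeR's quasi-likelihood test, with p adjusted over all genes and a threshold of 0.05. None of them had an adjusted p of at most 0.01 together with a log2 fold change of at least 1 in size. At an unadjusted p under 0.05 there were 1540 genes (11.5%), 768 higher (5.73%) and 772 lower (5.76%). The median log2 fold change over all genes tested was 0.0029, the median of its absolute value 0.21 and the median standard error 0.23.

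**Figure D1:**
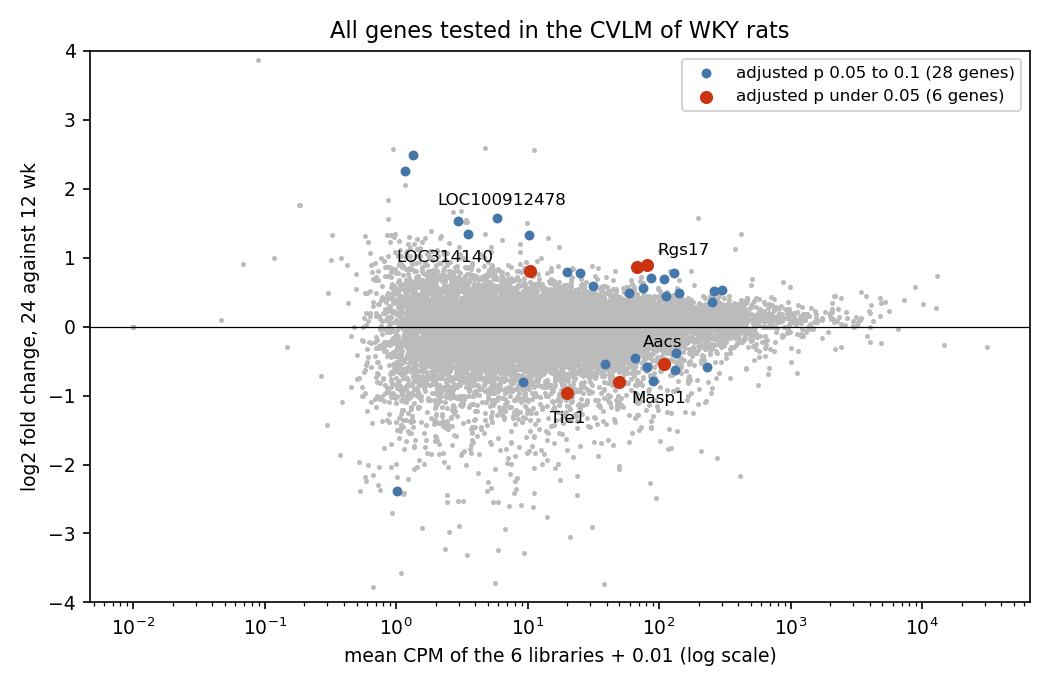
Log2 fold change at 24 against 12 wk in the CVLM of WKY rats, plotted against the level of each gene tested; 22 genes lie outside the plotted range of -4 to 4. The horizontal axis is the mean CPM of the 6 libraries plus 0.01, on a log scale; red points are the 6 genes at an adjusted p under 0.05 and blue points the 28 genes at 0.05 to 0.1. Many gray points, mostly on the lower side, have larger differences than the 6 red ones, which run from -0.97 to 0.89.

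Rgs17 (ENSRNOG00000018690) belongs to the RGS family, which shortens signaling through Gi- and Go-coupled receptors. It stood at 37.4, 71.7 and 61.6 CPM at 12 wk and 99.1, 113 and 105 CPM at 24 wk. Every 24 wk rat lay above every 12 wk rat, and 12 wk rat 1 was the lowest. The log2 fold change was 0.89 ± 0.15 (SE, n = 3 and 3; edgeR adjusted p = 0.0057). Means at the other ages were 63.7 CPM at 8 wk (n = 5), 55.4 CPM at 10 wk (n = 4) and 64.9 CPM at 16 wk (n = 3), so that the 24 wk rats stood above the rats of all 4 younger ages.

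LOC100912478 (ENSRNOG00000058793) stood at 47.3, 47.1 and 51.4 CPM at 12 wk and 107, 82.9 and 74.2 CPM at 24 wk, a log2 fold change of 0.86 ± 0.15 (edgeR adjusted p = 0.00742). LOC314140 (ENSRNOG00000056011) stood at 7.33, 8.42 and 7.01 CPM at 12 wk and 15.3, 12.4 and 12.3 CPM at 24 wk, a log2 fold change of 0.81 ± 0.16 (edgeR adjusted p = 0.0174). For both genes the ages did not overlap, and both had their lowest mean of the 5 ages at 12 wk. LOC314140 averaged 11.6 CPM at 8 wk, 11.6 CPM at 10 wk, 7.59 CPM at 12 wk, 9.24 CPM at 16 wk and 13.3 CPM at 24 wk. RefSeq's GRCr8 gene table lists LOC314140 as Prps1l3, named for its likeness to Prps1, a synthetase of the nucleotide precursor phosphoribosyl pyrophosphate. Reads may have been shared between such copies, so its level is uncertain. Prps1 itself stood at 146, 149 and 141 CPM at 12 wk and 188, 168 and 165 CPM at 24 wk, a log2 fold change of 0.26 ± 0.09 (adjusted p = 0.29). From here on the log2 fold change ± SE and edgeR's adjusted p stand in brackets after the levels. LOC100912478 was not matched in that table.

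Masp1 (ENSRNOG00000001827) encodes a serine protease of the lectin pathway of complement. It stood at 66.2, 61.8 and 61.1 CPM at 12 wk and 36.2, 35.8 and 36.8 CPM at 24 wk, and the rats of an age lay close together. The log2 fold change was -0.80 ± 0.14 (edgeR adjusted p = 0.00742). Its mean was lower at each later age, from 77.8 CPM at 8 wk through 67.9, 63 and 46.4 CPM at 10, 12 and 16 wk to 36.3 CPM at 24 wk. It was the only one called of 22 complement genes, whose median log2 fold change was 0.04. The next lowest p belonged to C7 (-0.57 ± 0.34, adjusted p = 0.508).

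Aacs (ENSRNOG00000000967) encodes acetoacetyl-CoA synthetase, which feeds ketone bodies into sterol and fatty acid synthesis. It stood at 113, 152 and 122 CPM at 12 wk and 88.6, 92.7 and 84.5 CPM at 24 wk, a log2 fold change of -0.54 ± 0.10 (edgeR adjusted p = 0.00943), with 12 wk rat 2 the highest. Tie1 (ENSRNOG00000020173) encodes a receptor tyrosine kinase of endothelial cells that modulates angiopoietin signaling. It stood at 27.7, 26.8 and 24.5 CPM at 12 wk and 16.6, 13.5 and 10.3 CPM at 24 wk, a log2 fold change of -0.97 ± 0.20 (edgeR adjusted p = 0.0455). The ages did not overlap for either gene. In tissue punches, fewer cells of a type and less RNA per cell cannot be told apart.

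**Figure D2:**
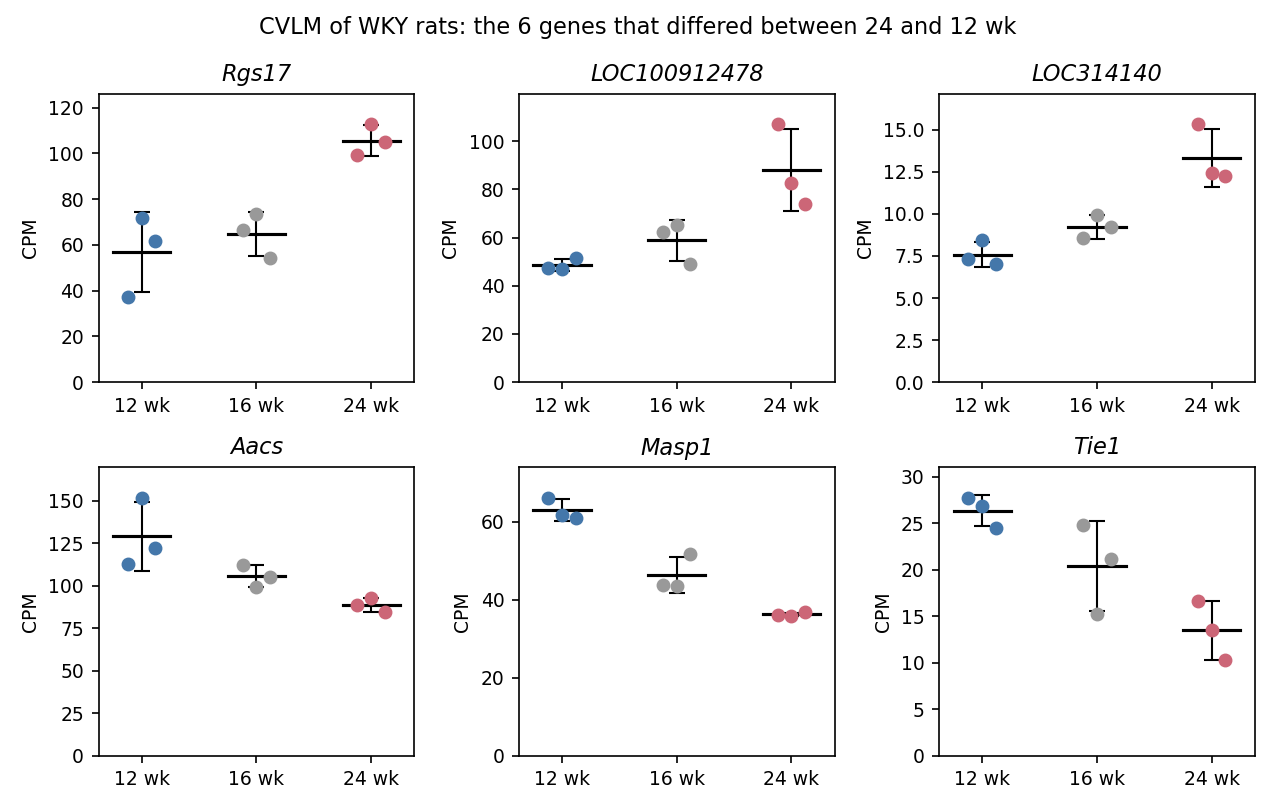
CPM of the 6 genes in the CVLM of WKY rats at 12, 16 and 24 wk; points are rats, bars are means and whiskers are SDs (n = 3 per age). No 12 wk point reaches the 24 wk points in any of the 6 panels, and each 16 wk mean lies between the 12 and 24 wk means.

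The 6 calls take their spread from all 46 CVLM libraries. When the 6 libraries were fitted alone none of the 6 genes passed (adjusted p = 0.698 for each), nor did any of them when the WKY libraries were fitted alone (0.24 for each). Without 12 wk rat 1 only Aacs of the 6 was called, without 24 wk rat 1 only Rgs17, and Tie1 lost its call whichever of the 6 rats was left out.

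The next genes in order of p did not pass the test, and 28 genes had an adjusted p from 0.05 to 0.1, so that 0.254% of all genes lay under 0.1. Oca2, a melanosomal transporter, stood at 5.17, 5.46 and 7.01 CPM at 12 wk and 15.6, 13.7 and 15.1 CPM at 24 wk (1.33 ± 0.29, adjusted p = 0.0691). Fbxo15, an F-box protein, stood at 1.29, 2.68 and 2.002 CPM at 12 wk and 5.92, 4.71 and 4.66 CPM at 24 wk (1.34 ± 0.31, adjusted p = 0.0789). Hprt1, the purine salvage enzyme that consumes phosphoribosyl pyrophosphate, stood at 224, 207 and 212 CPM at 12 wk and 341, 276 and 301 CPM at 24 wk (0.51 ± 0.12, adjusted p = 0.0789). The other 6 higher genes were Actr2 of the Arp2/3 complex, the mitophagy receptor Bnip3l, the splicing factor Zrsr2, the histone-binding Rbbp4, the neuronal RNA-binding Elavl4 and the zinc finger gene Zfp385d. Their log2 fold changes were 0.53, 0.35, 0.59, 0.56, 0.44 and 0.79, each with an adjusted p of 0.0789.

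Among the other lower genes named, none was called. Sox8, a transcription factor of the oligodendrocyte lineage, stood at 114, 95.3 and 81.3 CPM at 12 wk and 71.5, 63.7 and 58.95 CPM at 24 wk (-0.58 ± 0.14, adjusted p = 0.0789). Ttyh2, of the tweety family, stood at 148, 186 and 146 CPM at 12 wk and 124, 101 and 85.4 CPM at 24 wk (-0.63 ± 0.14, adjusted p = 0.0789). Adamts4, a protease that cleaves aggrecan, stood at 52.8, 59.2 and 44.8 CPM at 12 wk and 39, 28.7 and 20.96 CPM at 24 wk (-0.82 ± 0.21, adjusted p = 0.102). The histone deacetylase Hdac5 stood at 127, 118 and 94.3 CPM at 12 wk and 62.8, 70.5 and 62.9 CPM at 24 wk (-0.79 ± 0.18, adjusted p = 0.0789). The other 5 were Trafd1, a brake on innate immune signaling, Vps52 of retrograde transport, the actin crosslinker Actn4, Afap1l2 and Wscd1, with log2 fold changes of -0.46, -0.54, -0.39, -0.81 and -0.58 and adjusted p from 0.0789 to 0.083. All 24 named genes, picked for the lowest p, had ages that did not overlap, as did 13.3% of all genes tested (7.7% higher and 5.63% lower at 24 wk).

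Interferon-induced genes stood lower at 24 wk. Of 24 tested, 22 had a log2 fold change below 0, 8 of them at an unadjusted p under 0.05, and none was called. Their median was -0.64, against 0.0029 over all genes, of which 50.4% had a log2 fold change above 0. In 12 of the 24 every 24 wk rat lay below every 12 wk rat, against 5.63% of all genes. Isg15, a ubiquitin-like modifier, stood at 17.9, 16.4 and 31.6 CPM at 12 wk and 6.73, 7.18 and 10.3 CPM at 24 wk (-1.44 ± 0.47, adjusted p = 0.237). Irf7, a transcription factor that amplifies the type I response, stood at 25.2, 28.3 and 29.5 CPM at 12 wk and 9.75, 10.8 and 17.04 CPM at 24 wk (-1.15 ± 0.52, adjusted p = 0.397). Rat 3 was the highest of both ages for both genes. Gbp2, a guanylate-binding protein, stood at 8.41, 8.42 and 9.76 CPM at 12 wk and 5.57, 4.37 and 3.55 CPM at 24 wk (-0.97 ± 0.29, adjusted p = 0.207). Irf9, the DNA-binding subunit of the factor ISGF3, stood at 26.1, 30.4 and 35.9 CPM at 12 wk and 16.5, 19.1 and 23.5 CPM at 24 wk (-0.65 ± 0.21, adjusted p = 0.235). The antiviral GTPase Mx2 stood at 55.9, 92.3 and 117 CPM at 12 wk and 38.2, 45.99 and 52.3 CPM at 24 wk (-0.96 ± 0.33, adjusted p = 0.268). The 2 members above 0 were Ddx58 (0.10) and Ifit1, which had 0 counts in the 12 wk rats and 0.112 to 0.245 CPM at 24 wk, too few for a fold change. Leaving out 1 rat at a time gave medians from -0.79 to -0.50.

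Among WKY rats the interferon-induced genes were highest at 12 wk. Isg15 averaged 11 CPM at 8 wk, 7.69 CPM at 10 wk, 22 CPM at 12 wk, 11.4 CPM at 16 wk and 8.07 CPM at 24 wk. Irf7 averaged 18.1, 13.4, 27.7, 18.6 and 12.5 CPM in the same order. The median over the list of each rat's difference from the 12 wk mean, in log2(CPM + 1), ran from -0.58 to -0.23 at 8 wk, -0.92 to -0.55 at 10 wk, -0.28 to 0.22 at 12 wk, -0.77 to -0.10 at 16 wk and -0.70 to -0.35 at 24 wk. The 24 wk rats thus lay within the range of 8, 10 and 16 wk. Of these 3 ages only 16 wk has the same ending of all library names as 12 and 24 wk. In the same rats the median log2 fold change of the list at 24 against 12 wk was -0.44 in the NTS and -0.77 in the RVLM, and in the CVLM of SHRs it was -0.18. Isg15 in the RVLM stood at 17.2, 20.8 and 26 CPM at 12 wk and 9.35, 9.33 and 9.69 CPM at 24 wk. Summed levels of 17 microglial genes were 648, 472 and 575 CPM at 12 wk and 661, 614 and 697 CPM at 24 wk, and the part of microglia in the interferon-induced genes was not tested.

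Promoters of these genes are shown because many hold the interferon-stimulated response element, the motif that ISGF3 and interferon regulatory factors bind. RefSeq's GRCr8 promoter table, with 250 bases before to 50 after each start, holds 17 of the 24 genes. The letters GAAA, any 2 bases and GAAA, on either strand, were in 12 of the 17 (70.6%) and in 3.92% of all 33469 promoters. Of the 7 promoters of genes whose 24 wk rats all lay below the 12 wk rats, 6 held it and that of Irf9 did not. The 120 bases before the start of these 6 genes are printed 5′ to 3′ on the strand of the gene, with the motif or its reverse complement in capitals; in Oas1a 2 matches overlap.
Irf7: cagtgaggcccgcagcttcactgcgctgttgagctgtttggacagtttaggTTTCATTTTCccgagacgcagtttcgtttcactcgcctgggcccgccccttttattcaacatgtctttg
Gbp2: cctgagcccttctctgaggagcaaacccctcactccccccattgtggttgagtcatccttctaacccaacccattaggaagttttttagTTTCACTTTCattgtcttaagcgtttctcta
Gbp5: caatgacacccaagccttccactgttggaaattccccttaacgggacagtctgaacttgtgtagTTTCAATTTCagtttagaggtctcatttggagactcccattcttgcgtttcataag
Igtp: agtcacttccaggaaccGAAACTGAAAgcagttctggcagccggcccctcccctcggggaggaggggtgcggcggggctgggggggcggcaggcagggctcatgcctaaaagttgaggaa
Irgm: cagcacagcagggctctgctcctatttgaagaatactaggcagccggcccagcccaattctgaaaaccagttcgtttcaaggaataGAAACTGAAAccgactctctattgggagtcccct
Oas1a: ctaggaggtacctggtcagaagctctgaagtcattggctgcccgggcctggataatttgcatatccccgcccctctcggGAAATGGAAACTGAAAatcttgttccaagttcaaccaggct
In GRCr8 they are Irf7 at chr1:205800024-205800143 (minus strand), Gbp2 at chr2:234005607-234005726 (plus strand), Gbp5 at chr2:233910879-233910998 (plus strand), Igtp at chr10:42874927-42875046 (plus strand), Irgm at chr10:33742579-33742698 (minus strand) and Oas1a at chr12:41330346-41330465 (plus strand). A match is a run of letters and no measure of binding in the CVLM.

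**Figure D3:**
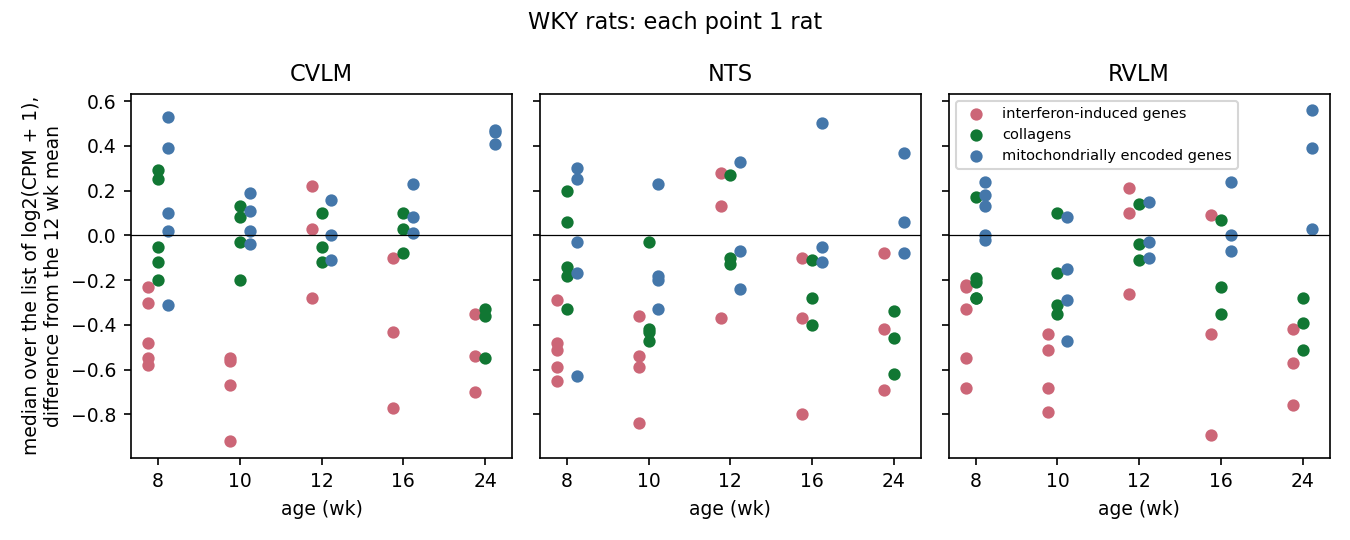
Median over each of 3 gene lists of log2(CPM + 1), as the difference from the 12 wk mean, against age in the CVLM, NTS and RVLM of WKY rats; each point is 1 rat. The highest point of the interferon-induced genes is a 12 wk rat in each region, and in the CVLM the 24 wk rats lie apart from the 12 wk rats in all 3 lists.

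All 13 mitochondrially encoded genes had log2 fold changes above 0, from 0.27 to 0.80 with a median of 0.45. Of these 9 had an unadjusted p under 0.05, none was called, and in 12 every 24 wk rat lay above every 12 wk rat, against 7.7% of all genes. Mt-nd6 stood at 67.4, 55.1 and 75.6 CPM at 12 wk and 111, 102 and 112 CPM at 24 wk (0.71 ± 0.18, adjusted p = 0.0864). Mt-nd5 stood at 681, 846 and 858 CPM at 12 wk and 1187, 1138 and 1221 CPM at 24 wk (0.57 ± 0.15, adjusted p = 0.11). Mt-nd4l stood at 103, 137 and 146 CPM at 12 wk and 217, 229.7 and 223 CPM at 24 wk (0.80 ± 0.21, adjusted p = 0.126). All 3 encode subunits of complex I of the respiratory chain, and in each the 24 wk rats lay close together. Mitochondrially encoded genes took 4.41%, 4.58% and 5.31% of all counts at 12 wk and 6.29%, 5.97% and 5.92% at 24 wk. Mt-nd6 averaged 66.2, 63.7 and 69.2 CPM at 8, 10 and 16 wk, near its 12 wk mean of 66 CPM. Over the whole list the 24 wk rats did not stand above all younger ages. Per rat, the median difference from the 12 wk mean, in log2(CPM + 1), ran from -0.31 to 0.53 at 8 wk and -0.04 to 0.19 at 10 wk. It ran from -0.11 to 0.16 at 12 wk, 0.01 to 0.23 at 16 wk and 0.41 to 0.47 at 24 wk. The value of 0.53 came from rat 5 of 8 wk alone, whose title says 8 wk and whose age label says 10 wk. The next highest rat of 8 wk stood at 0.39, below the 24 wk rats. The list's median was 0.16 in the CVLM of SHRs, and 0.17 in the NTS and 0.33 in the RVLM of the WKY rats.

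Nuclear genes of respiration and of the ribosome differed less and turned on single rats. Of 79 nuclear genes of oxidative phosphorylation, 74 had a log2 fold change above 0, with a median of 0.16, and none was called. At an unadjusted p under 0.05, 6 of the 79 were higher, near the share of 5.73% of all genes. In 5 of the 79 every 24 wk rat lay above every 12 wk rat, against 7.7% of all genes. Uqcrc2 of complex III stood at 417, 400.5 and 414 CPM at 12 wk and 521, 474 and 479.5 CPM at 24 wk (0.26 ± 0.09, adjusted p = 0.29), and Sdhd of complex II and Ndufs4 of complex I both had a log2 fold change of 0.31 (adjusted p = 0.272 and 0.275). Of 79 genes of the cytosolic ribosome, 77 were above 0, with a median of 0.31, 11 at an unadjusted p under 0.05 and none called. In 15 of these every 24 wk rat lay above every 12 wk rat. Rpl3 stood at 416, 402 and 393 CPM at 12 wk and 532, 535 and 541 CPM at 24 wk (0.41 ± 0.10, adjusted p = 0.107). Rps4x (0.46 ± 0.14, adjusted p = 0.224) and Rpl7a, listed under 2 identifiers with identical values, were next. Summed over the list, ribosomal genes came to 10590, 6177 and 8220 CPM at 12 wk and 9965, 9224 and 11600 CPM at 24 wk, so that 12 wk rat 1 lay among the 24 wk rats and 12 wk rat 2 far below them. Leaving out 1 rat gave ribosomal medians from 0.12 to 0.53 and nuclear respiratory medians from -0.04 to 0.48. Without 12 wk rat 1 they were 0.53 and 0.48, without 12 wk rat 2 they were 0.12 and -0.04, and without 24 wk rat 3 the nuclear respiratory median was 0.07. In the CVLM of SHRs both medians were -0.27.

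One endothelial gene, Tie1, was called lower at 24 wk. Of 15 endothelial genes 14 had a log2 fold change below 0, with a median of -0.24, and 4 had an unadjusted p under 0.05, Tie1 among them. Slco1c1, the thyroxine transporter of the blood-brain barrier, stood at 110.5, 90.9 and 103 CPM at 12 wk and 80.1, 78.96 and 72.4 CPM at 24 wk (-0.39 ± 0.13, adjusted p = 0.255). Kdr, a receptor for vascular endothelial growth factor, stood at 12.8, 14.9 and 19.02 CPM at 12 wk and 12.1, 12.9 and 8.46 CPM at 24 wk (-0.48 ± 0.18, adjusted p = 0.301). Of 12 genes of pericytes and smooth muscle, 8 were below 0 and 4 above, with a median of -0.13, and 3 were lower and 1 higher at an unadjusted p under 0.05. Leaving out 1 rat gave medians from -0.24 to -0.06, with -0.24 without 12 wk rat 2, -0.06 without 12 wk rat 3 and -0.08 without 24 wk rat 1. The pericyte receptor Pdgfrb stood at 11.96, 18.9 and 12.3 CPM at 12 wk and 6.04, 9.98 and 6.13 CPM at 24 wk (-0.96 ± 0.26, adjusted p = 0.136) and Notch3 of mural cells at 2.16, 4.02 and 2.13 CPM at 12 wk and 1.28, 1.68 and 0.858 CPM at 24 wk (-1.12 ± 0.44, adjusted p = 0.335). Mylk, the kinase that starts smooth muscle contraction, stood at 2.26, 2.87 and 4.75 CPM at 12 wk and 7.66, 8.08 and 6.13 CPM at 24 wk (1.15 ± 0.32, adjusted p = 0.149). Pdgfrb and Notch3 were lower in every 24 wk rat and Mylk was higher in every one.

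Collagens stood lower at 24 wk. Of 24 tested, 18 had a log2 fold change below 0, with a median of -0.58, 8 were lower at an unadjusted p under 0.05, and none was called. In 10 every 24 wk rat lay below every 12 wk rat, against 5.63% of all genes. Col20a1 stood at 0.754, 2.20 and 2.13 CPM at 12 wk and 0.116, 0.112 and 0.735 CPM at 24 wk (-2.39 ± 0.58, adjusted p = 0.0853), a low level throughout. Col9a3 of cartilage-type fibrils stood at 18.3, 16.8 and 15.6 CPM at 12 wk and 14.2, 7.07 and 7.23 CPM at 24 wk (-0.84 ± 0.26, adjusted p = 0.233). Col11a2 stood at 17.5, 29.9 and 23.02 CPM at 12 wk and 16.5, 10.7 and 10.1 CPM at 24 wk (-0.92 ± 0.30, adjusted p = 0.237). The interstitial Col3a1 stood at 3.02, 3.06 and 6.13 CPM at 12 wk and 1.86, 2.58 and 1.47 CPM at 24 wk (-1.03 ± 0.43, adjusted p = 0.359). Per rat, the median difference of the list from the 12 wk mean ran from -0.20 to 0.29 at 8, 10 and 16 wk and from -0.55 to -0.33 at 24 wk, in log2(CPM + 1). The median log2 fold change was -0.60 in the NTS and -0.61 in the RVLM of the same rats, and -0.22 in the CVLM of SHRs. Without 12 wk rat 2 it was -0.35. Ttr, a choroid plexus gene, was high in that rat's library alone, at 0.108, 185 and 5.13 CPM at 12 wk and 0.116, 0 and 0 CPM at 24 wk. Summed markers of leptomeninges and fibroblasts, which include collagens, were 810.4, 476 and 730.1 CPM at 12 wk and 762, 654 and 777 CPM at 24 wk. The part of tissue next to the punch was not tested.

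**Figure D4:**
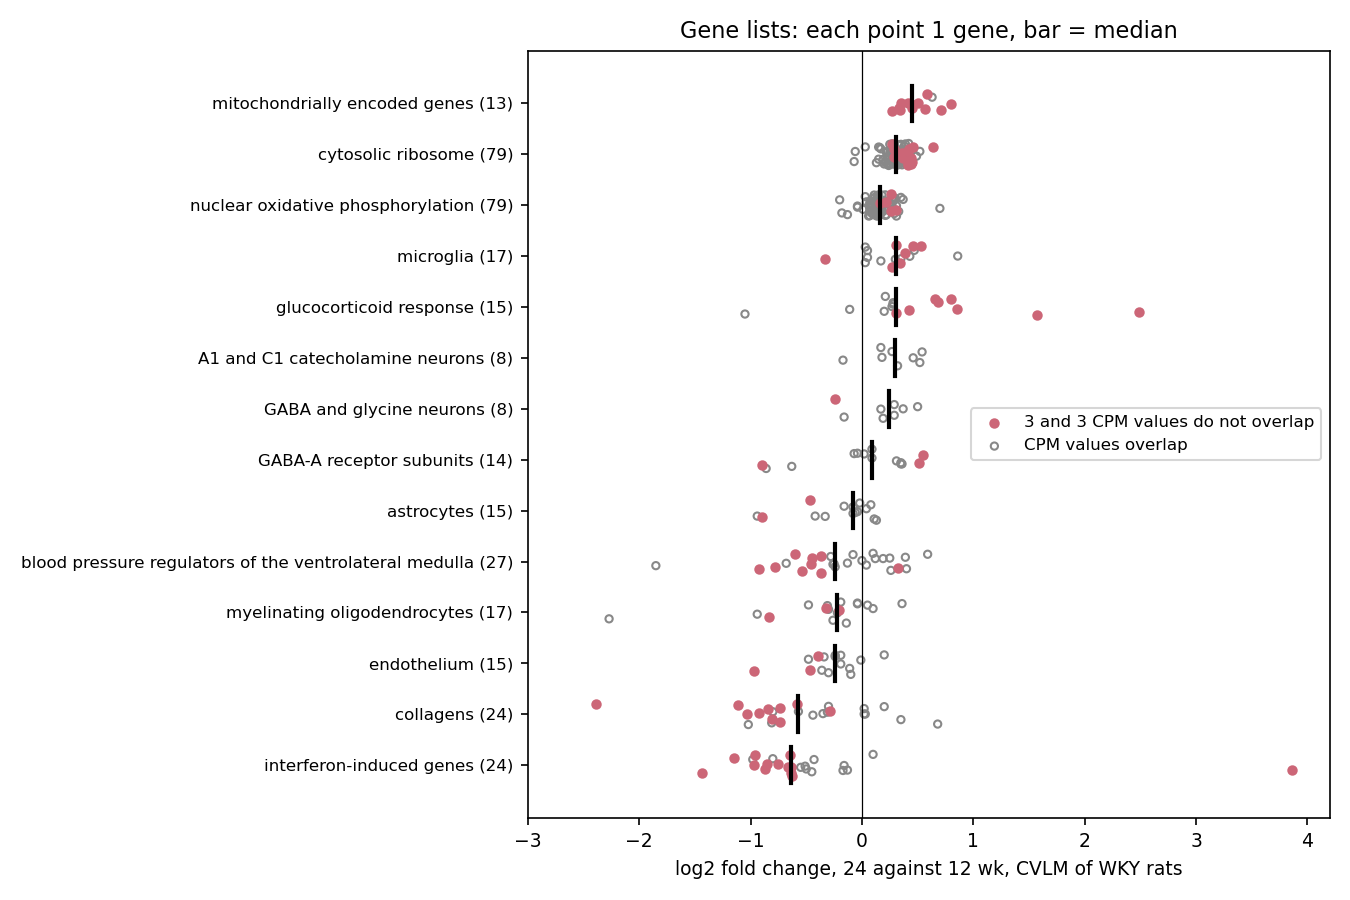
Log2 fold changes at 24 against 12 wk in the CVLM of WKY rats for 14 gene lists, with the number of genes tested in brackets; points are genes, filled where the 3 and 3 CPM values do not overlap, and bars are medians. Medians run from -0.64 for interferon-induced genes and -0.58 for collagens to 0.45 for mitochondrially encoded genes; the filled point at 3.86 is Ifit1, which had 0 counts at 12 wk.

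Of 15 genes turned on by glucocorticoids, 4 were higher at 24 wk at an unadjusted p under 0.05 and none was called. In 8 every 24 wk rat lay above every 12 wk rat, against 7.7% of all genes. The median log2 fold change was 0.31, and 0.63 without 12 wk rat 1. Per1, a clock gene that stress steroids induce, stood at 0.216, 0.574 and 0.375 CPM at 12 wk and 1.86, 2.13 and 2.82 CPM at 24 wk (2.49 ± 0.58, adjusted p = 0.0789). Its level was low throughout, and its mean was lowest at 12 wk. Its highest rat reached 2.16 CPM at 8 wk and 1.93 CPM at 16 wk, so these ages overlapped 24 wk. The kinase Sgk1, which raises sodium transport, stood at 111, 98.7 and 89.96 CPM at 12 wk and 265, 226 and 398 CPM at 24 wk (1.57 ± 0.53, adjusted p = 0.256). Pdk4, which holds back pyruvate oxidation, stood at 5.07, 6.79 and 6.13 CPM at 12 wk and 10.4, 9.31 and 11.6 CPM at 24 wk (0.80 ± 0.26, adjusted p = 0.24), and Nfkbia, an inhibitor of NF-kappaB, at 31.9, 27.9 and 42.4 CPM at 12 wk and 48.98, 46.5 and 67.9 CPM at 24 wk (0.68 ± 0.26, adjusted p = 0.307). Fkbp5, a common marker of the response, had overlapping ages (0.27 ± 0.49, adjusted p = 0.839). Sgk1 in the NTS stood at 79.6, 68 and 63.6 CPM at 12 wk and 227, 137 and 315 CPM at 24 wk, and in the RVLM at 87.8, 83.1 and 74.2 CPM and then at 195, 208 and 402 CPM. In all 3 regions every 24 wk value of Sgk1 lay above every 12 wk value, though the share of all genes that did so was not counted in the NTS and RVLM. In the CVLM at 16 wk Sgk1 ran from 94.9 to 340 CPM, so that age overlapped 24 wk. The median of the list per rat, as the difference from the 12 wk mean in log2(CPM + 1), also overlapped. It ran from 0.09 to 0.63 at 16 wk and from 0.27 to 0.63 at 24 wk. Sgk1 in SHRs ran from 90 to 208 CPM with a median of 113 CPM at 12 wk and from 89.1 to 468 CPM with a median of 226 CPM at 24 wk. The median log2 fold change of the whole list was 0.17 in the NTS and 0.33 in the RVLM of the same WKY rats, and -0.02 in the CVLM of SHRs. The glucocorticoid response element, searched as AGAACA, any 3 bases and TGTTCT on either strand, was in 0 of the 14 promoters of these genes in the table and in 0.0149% of all promoters. Only 5 of all 33469 promoters held so exact a run of letters. A search of 14 promoters could hardly have found it, so its absence tells nothing about these genes.

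No gene of the neuronal lists was called. Of 8 genes of A1 and C1 catecholamine neurons, 7 had a log2 fold change above 0, with a median of 0.30, which was 0.12 without 12 wk rat 3 and 0.47 without 24 wk rat 2. In none did the ages lie apart, and 1 had an unadjusted p under 0.05. This was the vesicular monoamine transporter Slc18a2, at 36.4, 54.1 and 28.3 CPM at 12 wk and 63.4, 44.2 and 56.4 CPM at 24 wk (0.46 ± 0.21, adjusted p = 0.394). Ddc (0.27 ± 0.17, adjusted p = 0.525) and Pnmt (0.52 ± 0.39, adjusted p = 0.591) followed. Th stood at 141, 119 and 78.6 CPM at 12 wk and 151, 80.1 and 151 CPM at 24 wk (0.17 ± 0.31, adjusted p = 0.839), and its values within an age spread as widely as between ages. None of 8 genes of GABA and glycine neurons had an unadjusted p under 0.05. Among the lowest p were those of the glycine receptor Glra1 (0.50 ± 0.32, adjusted p = 0.533) and of Gad2, which makes GABA and stood at 84.7, 211 and 129.7 CPM at 12 wk and 205, 164 and 152 CPM at 24 wk (0.29 ± 0.22, adjusted p = 0.59). Of 14 GABA-A receptor subunits 3 were higher at an unadjusted p under 0.05. Gabrb1 stood at 24.9, 45.5 and 37.9 CPM at 12 wk and 57.1, 54.9 and 47.1 CPM at 24 wk (0.55 ± 0.17, adjusted p = 0.224) and Gabra2 at 7.65, 20.2 and 15.5 CPM at 12 wk and 20.4, 20.9 and 20.5 CPM at 24 wk (0.51 ± 0.21, adjusted p = 0.355). In both of these subunits 12 wk rat 1 was the lowest, as it was for Gad2.

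Peptide and motor neuron genes were more uneven. Pdyn, the dynorphin precursor, stood at 10.02, 13.9 and 14.3 CPM at 12 wk and 5.92, 6.95 and 5.27 CPM at 24 wk (-1.07 ± 0.41, adjusted p = 0.321), and Adcyap1, the precursor of the peptide PACAP, at 34.4, 43.3 and 30.6 CPM at 12 wk and 58.5, 39.8 and 50.5 CPM at 24 wk (0.46 ± 0.15, adjusted p = 0.245). They were the only 2 of 22 neuropeptide genes at an unadjusted p under 0.05, and Calca was next (-1.36 ± 0.75, adjusted p = 0.485). None of 8 genes of motor and cholinergic neurons had a log2 fold change above 0, with a median of -0.61, which was -0.34 without 12 wk rat 1 and -0.96 without 24 wk rat 3. Chat, which makes acetylcholine, stood at 24.6, 21.1 and 16.6 CPM at 12 wk and 13.8, 7.96 and 12.8 CPM at 24 wk (-0.85 ± 0.39, adjusted p = 0.401). The vesicular acetylcholine transporter Slc18a3 stood at 46.7, 29.3 and 16.5 CPM at 12 wk and 16.9, 8.41 and 22.9 CPM at 24 wk (-0.94 ± 0.50, adjusted p = 0.474) and the intermediate filament Prph at 88.3, 13.9 and 40.04 CPM at 12 wk and 23.2, 15.9 and 25.4 CPM at 24 wk (-1.14 ± 0.51, adjusted p = 0.393), both with overlapping ages. Without 12 wk rat 1 the log2 fold change was -0.52 for Slc18a3 and -0.32 for Prph, and without 24 wk rat 2 that of Slc18a3 was -0.63. The median of the list was 0.51 in the CVLM of SHRs.

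Of 27 genes that act on blood pressure in the ventrolateral medulla, 3 were lower and 1 was higher at an unadjusted p under 0.05 and none was called. In 8 every 24 wk rat lay below every 12 wk rat, against 5.63% of all genes. The median was -0.24, and -0.08 without 12 wk rat 1, -0.14 without 12 wk rat 3 and -0.10 without 24 wk rat 2. Ace, which makes angiotensin II, stood at 19.2, 25.8 and 25.4 CPM at 12 wk and 18.6, 18.4 and 14.5 CPM at 24 wk (-0.45 ± 0.16, adjusted p = 0.279). The adenosine receptor Adora1 stood at 171, 196 and 145 CPM at 12 wk and 143, 125 and 128 CPM at 24 wk (-0.37 ± 0.15, adjusted p = 0.348). The endothelin receptor Ednrb stood at 158, 213 and 237 CPM at 12 wk and 253, 257 and 248 CPM at 24 wk (0.32 ± 0.14, adjusted p = 0.393), higher in every 24 wk rat. The angiotensin receptor Agtr1a (0.39 ± 0.36) and the precursor Agt (0.00 ± 0.17) had ages that overlapped.

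Glial lists differed in direction. Of 17 microglial genes 16 were above 0, with a median of 0.31 (0.20 without 12 wk rat 2), 4 at an unadjusted p under 0.05 and none called. The lysosomal protease Ctss stood at 100.1, 76.1 and 94.7 CPM at 12 wk and 128, 116 and 127 CPM at 24 wk (0.46 ± 0.14, adjusted p = 0.234), the purinergic receptor P2ry12 at 25.3, 25.8 and 29.4 CPM at 12 wk and 35.4, 32.3 and 32.4 CPM at 24 wk (0.31 ± 0.15, adjusted p = 0.413), and Laptm5 at 32.3, 30.1 and 30.8 CPM at 12 wk and 43.1, 38.2 and 36.4 CPM at 24 wk (0.34 ± 0.16, adjusted p = 0.401). Hbb, from blood in the tissue, stood at 453, 316 and 400.4 CPM at 12 wk and 443, 630.1 and 816 CPM at 24 wk, and its part in the microglial values was not tested. Of 17 genes of myelinating oligodendrocytes 14 were below 0, with a median of -0.22, and 6 were lower at an unadjusted p under 0.05. In 3 every 24 wk rat lay below every 12 wk rat, against 5.63% of all genes. Per rat, the list's median difference from the 12 wk mean, in log2(CPM + 1), was -0.04, -0.31 and -0.31 at 24 wk and -0.06 to 0.07 at 12 wk. The list's median log2 fold change was 0.18 in the NTS and -0.41 in the RVLM of the same rats, and -0.24 in the CVLM of SHRs. The myelin enzyme Cnp stood at 2474, 2437 and 2403 CPM at 12 wk and 2022, 1940 and 1893 CPM at 24 wk (-0.32 ± 0.10, adjusted p = 0.208). Ugt8, which makes galactosylceramide, stood at 407, 738 and 683 CPM at 12 wk and 462, 477 and 371 CPM at 24 wk (-0.48 ± 0.18, adjusted p = 0.299), and the lipid hydroxylase Fa2h at 89.9, 64.8 and 102 CPM at 12 wk and 35.8, 51.6 and 56.8 CPM at 24 wk (-0.83 ± 0.34, adjusted p = 0.351). Of 15 astrocyte genes, with a median of -0.08 (-0.14 to -0.03 on leaving out 1 rat), only the transcription factor Sox9 had an unadjusted p under 0.05, at 30.7, 24.6 and 35.03 CPM at 12 wk and 10.3, 17.6 and 20.4 CPM at 24 wk (-0.90 ± 0.31, adjusted p = 0.27). Fgfr3 (-0.47 ± 0.26, adjusted p = 0.489) and Aldh1l1 (-0.33 ± 0.20, adjusted p = 0.515) followed.

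In the CVLM of SHRs the same step in age gave 1 called gene of 13408 (0.00746%) and 979 genes at an unadjusted p under 0.05 (7.3%). The called gene was Cyp51, an enzyme of cholesterol synthesis, named here after its value was seen, with a log2 fold change of -0.35 in SHRs (edgeR adjusted p = 0.0398) and -0.29 in WKY rats (0.234). None of the 6 WKY genes was called in SHRs. Rgs17 in SHRs ran from 52 to 71.6 CPM with a median of 64.2 CPM at 12 wk and from 61.4 to 84.1 CPM with a median of 65.7 CPM at 24 wk. Tie1 in SHRs ran from 23.2 to 25.8 CPM with a median of 24.8 CPM at 12 wk and from 18.9 to 35.9 CPM with a median of 22.4 CPM at 24 wk. Masp1 in SHRs ran from 51.4 to 59.6 CPM with a median of 54.2 CPM at 12 wk and from 26.7 to 45.2 CPM with a median of 41.7 CPM at 24 wk, without overlap between the ages and a log2 fold change of -0.46 (adjusted p = 0.106). SHRs of 24 wk thus overlapped those of 12 wk for Rgs17 and Tie1 and not for Masp1. The share of all genes whose ages did not overlap was not counted in SHRs, and these genes were chosen by their WKY values.

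The difference between the strains in the change with age was tested for every gene, and none was called (0%; lowest adjusted p 0.146), while 1176 genes had an unadjusted p under 0.05 (8.77%) and DESeq2's Wald test called 6. The 5 lowest p belonged to Trafd1, Susd2, LOC100912478, Coro7 and Rgs17. For Trafd1 the log2 fold change was -0.46 in WKY rats and 0.19 in SHRs, a difference of -0.65 ± 0.13 (adjusted p = 0.146). For Rgs17 the difference was 0.77 ± 0.18 and for LOC100912478 0.82 ± 0.19 (adjusted p = 0.273 for both). Susd2 and Coro7, a coronin, were at -0.43 and -0.52 in WKY rats and 0.47 and 0.24 in SHRs. For Tie1 the difference was -0.95 ± 0.24 and for Masp1 -0.34 ± 0.17 (adjusted p = 0.318 and 0.576).

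In the other regions of the same WKY rats no gene was called. At an unadjusted p under 0.05 there were 1104 genes in the NTS (8%) and 1210 in the RVLM (9.02%). Rgs17 stood at 66.9, 60.8 and 56.8 CPM at 12 wk and 86.5, 71 and 75.9 CPM at 24 wk in the NTS, and at 31, 30.7 and 34.4 CPM and then at 35.2, 47.2 and 43.7 CPM in the RVLM. Masp1 stood at 40.1, 42.3 and 33.8 CPM and then at 27.1, 27 and 30.1 CPM in the NTS, and at 62.8, 59.7 and 56.6 CPM and then at 54.8, 46 and 60.8 CPM in the RVLM. Tie1 stood at 13.9, 23.9 and 17.1 CPM and then at 15.5, 18.2 and 17.2 CPM in the NTS, and at 26.3, 30.9 and 29 CPM and then at 16.2, 17.2 and 21.9 CPM in the RVLM. The ages did not overlap for Rgs17 in either region, for Masp1 in the NTS or for Tie1 in the RVLM. How many of all genes had ages that did not overlap was not counted in these regions, and in the CVLM it was 13.3%. These genes were chosen by their CVLM values in the same rats.

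In 1 fit over all regions, with the rat as a block, the difference of the age effect of the CVLM from that of the NTS or of the RVLM was called for no gene (lowest adjusted p 1 in each, edgeR). At an unadjusted p under 0.05 there were 505 genes against the NTS (3.77%) and 447 against the RVLM (3.33%). The difference of the CVLM was 0.55 ± 0.31 from the NTS and 0.49 ± 0.31 from the RVLM for Rgs17, -0.36 ± 0.20 and -0.67 ± 0.20 for Masp1, and -0.90 ± 0.28 and -0.37 ± 0.28 for Tie1. The lowest p against the NTS belonged to LOC100174910, Dnajb11, Sostdc1, Rap2b and Cc2d1b, and against the RVLM to Snx27, Aaas, Fam208a, RGD1304622 and Hs1bp3. Among them Dnajb11, a chaperone of the endoplasmic reticulum, differed by -0.48 ± 0.13, and Snx27, which returns endosomal receptors to the cell surface, by 0.70 ± 0.18.

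**Figure D5:**
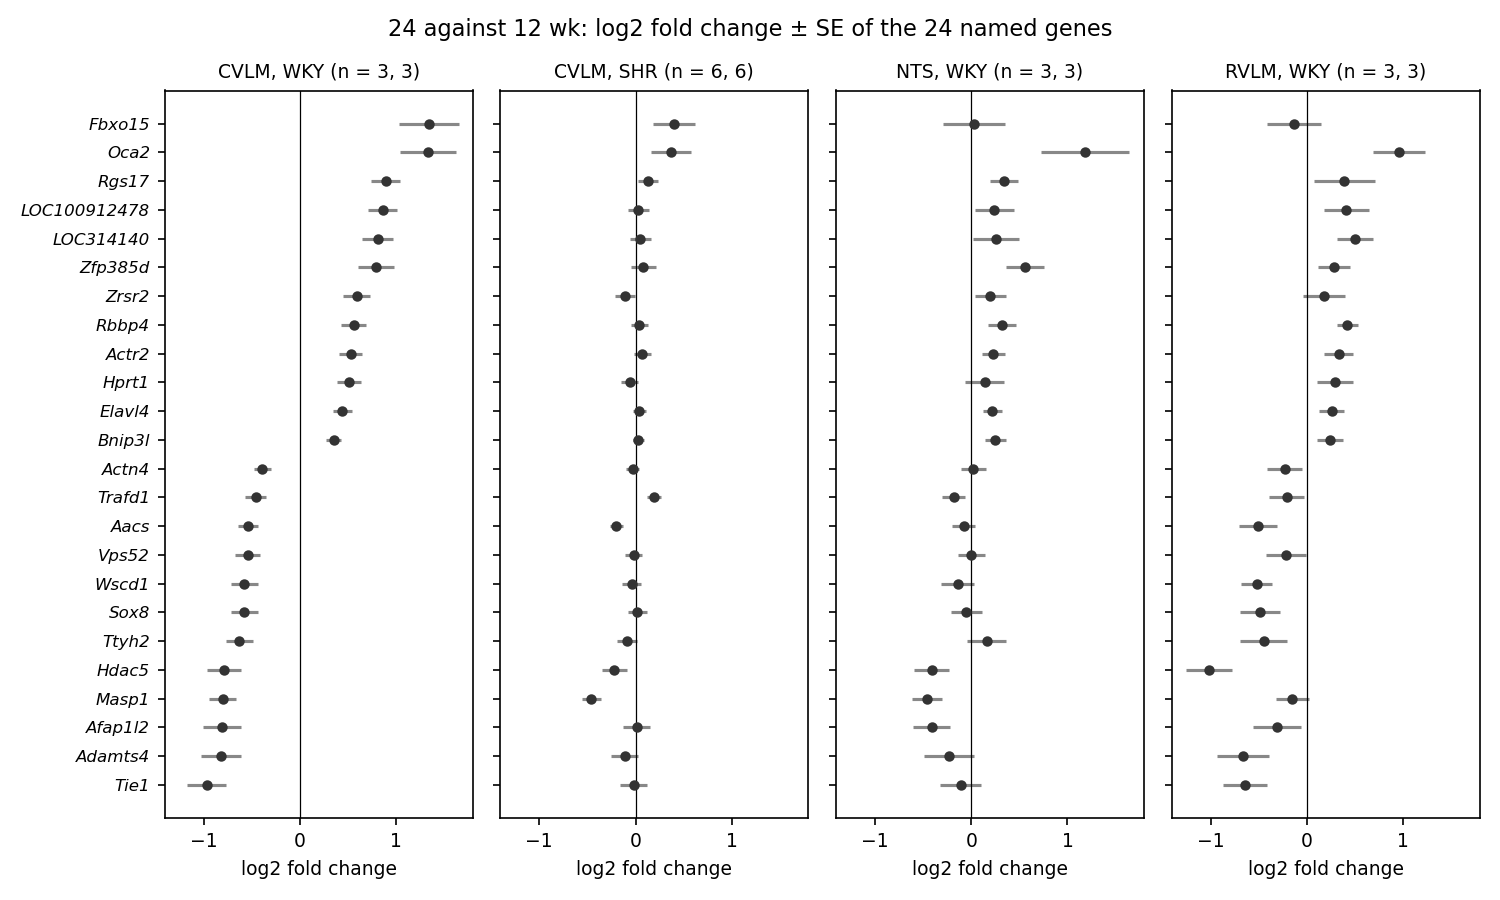
Log2 fold change at 24 against 12 wk for the 24 named genes in the CVLM of WKY rats, the CVLM of SHRs, and the NTS and RVLM of WKY rats; points are estimates and bars are standard errors. The CVLM values of WKY rats chose the genes; those of SHRs lie between -0.46 for Masp1 and 0.40 for Fbxo15, and Oca2 has the highest value in both other regions, 1.18 and 0.96.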

How the data were processed

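RNA of the CVLM, NTS and RVLM of 46 rats was sequenced by the authors as paired-end libraries, 1 per rat and region, mapped to rn6 with STAR 2.6.1 within RSEM 1.3.1, and deposited as RSEM's expected counts per gene, not normalized. The methods name a batch adjustment (ComBat_seq) that returns whole numbers, and 4.95% of the deposited CVLM values were not whole.

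Expected counts were rounded here. Genes with a maximum rlog value of at least 3.5 were kept (13408 in the CVLM, 13793 in the NTS, 13411 in the RVLM), and edgeR 4.0.16 in R 4.3.3 fitted all 10 CVLM groups of strain and age with TMM scaling and the quasi-likelihood test, p adjusted by Benjamini-Hochberg over all genes. Standard errors are the absolute log2 fold change over the root of F. Differences between regions came from 1 fit over all libraries with the rat as a block. Totals of 7897447 to 9979543 counts per library limit the precision of genes at a few CPM. Replicates are separate rats. The 2 libraries with conflicting age labels, rat 5 of 8 wk in the CVLM of each strain, lie outside the comparison and were placed by title. Both are in the fit that sets the spread, and that of the WKY rat is in the 8 wk values given. Without them 6 genes were called, 5 of which were among the 6 of the main fit. Alternatives used DESeq2 1.42.0, limma 3.58.1, other filters and libraries left out. The code was tested on simulated data.

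Members and gene lists were chosen with earlier results of these data known, and list counts are descriptions without a test. Named were the 12 genes with the largest rise and the 12 with the largest fall among called genes with a mean of at least 20 counts, filled up by lowest p, and called members and the 3 lowest p of each list discussed; some of these are not reported here. Other genes in the text, such as Irf7, Mx2, Col3a1, Nfkbia, Th, Ttr, Jund, Olig1, Hbb, Hoxa5, Hoxb5 and Fkbp5, were chosen after their values were seen. Values of the supplements of the study were not used.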

Additional observations from a re-analysis of the deposited data

How the results depend on the processing

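The 6 genes kept their direction under all 17 alternatives run: 64 of their values also kept their side of the threshold and 38 did not. The log2 fold changes ran from 0.66 to 1.09 for Rgs17, 0.69 to 0.97 for LOC100912478, 0.70 to 0.89 for LOC314140, -0.83 to -0.76 for Masp1, -0.63 to -0.41 for Aacs and -1.15 to -0.81 for Tie1. The count of 6 became 47 with DESeq2's Wald test (26 higher, 21 lower, all 6 genes among them), 18 with the ending number of the library name as a term (11 higher, 7 lower, all 6 among them), 3 with only the libraries whose name ends in 1, an alternative chosen after seeing the data, 1 with only the WKY libraries (none of the 6), 0 with only the 6 libraries (907 at an unadjusted p under 0.05) and 0 at the stricter threshold. Leaving out 1 rat gave 1 to 12: 2 without 12 wk rat 1, 12 without 12 wk rat 2, 4 without 12 wk rat 3, and 1, 7 and 5 without 24 wk rats 1, 2 and 3. The cause of these changes in the count was not tested. The smaller fits differ from the main fit both in the number of libraries and in the groups that set the spread.

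The replicate numbers share no source in the labels, and the correlations of deviations of same-numbered rats were -0.09, 0.08 and 0.11, so they were not taken as pairs. With the replicate block 6 genes were called, the same 6.

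The strain difference of 0 called genes became 6 with DESeq2's Wald test (1 higher, 5 lower), 1 with the ending number as a term, and 0 to 1 on leaving out 1 rat (1 without 24 wk rat 2). The region differences gave 0 called genes in each alternative run. Low or overlapping genes reversed: Sostdc1 (-0.67 to 1.13 on leaving out 1 rat) to 0.91 with limma voom, 1.13 without 12 wk rat 2 and 0.14 without 24 wk rat 1, Dpysl5 (-0.61 to 0.03) to 0.03 without 12 wk rat 2 and Htr1a to -0.02 without 12 wk rat 1.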
